A study of Mus musculus with 13 samples.

Results

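The genes described here are 10 transcription factors, elongation factors and stress sensors of cells that secrete protein at high capacity, followed through the development of the mouse submandibular salivary gland. They were chosen by symbol: Bhlha15, Xbp1, Ell2, Eaf2, Creb3l1, Creb3l2, Creb3l4, Atf6, Ern1 and Ern2. All 10 symbols were found among the 23364 genes of the series, and all 10 were among the 14650 genes that reached 1 FPKM (reads per kilobase of gene, scaled to the reads on all genes) in at least 1 sample. Ern2 passed that filter only through its E16.5 and E18.5 values. The 13 samples were RNA-seq libraries of whole glands from C57BL/6 mice with no treatment and no engineered allele. They comprised 3 samples of embryonic day E14.5, 2 each of E16.5 and E18.5, 2 of postnatal day 5 (P5), and 2 each of 4 week (4wk) and 12 week (12wk) old animals. The labels group them into the embryo (7 samples), neonatal (2 samples) and adult (4 samples) stages. Embryonic glands were pooled, from 3 animals for each sample of E14.5 and from 2 animals for those of E16.5 or E18.5. The sex of the embryos and P5 animals was not ascertained, while the 4wk and 12wk animals were males.

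Secretory acinar cells, like plasma cells, load their endoplasmic reticulum (ER) with newly made protein, and the genes examined here serve that load. IRE1 enzymes, encoded by Ern1 and Ern2, sense unfolded protein in the ER and cut a short intron out of Xbp1 mRNA in the cytoplasm, which shifts the reading frame so that the active factor XBP1 is made. ATF6 and the CREB3-like proteins are factors tethered in the ER membrane that are freed by proteases in the Golgi and then enter the nucleus. MIST1, the product of Bhlha15, is a basic helix-loop-helix factor of serous exocrine cells that acts on secretory granules and cell architecture, and ELL2 with its partner EAF2 speeds transcript elongation by RNA polymerase II, a function best known from antibody-secreting plasma cells.

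The Xbp1 intron is shown because every measurement of Xbp1 here sums mRNA with and without it. In the mm9 annotation, Xbp1 (ENSMUSG00000020484.11, chr11:5420662-5425896, plus strand) has 6 transcripts, and the intron of 26 bases lies at chr11:5424285-5424310 within coding sequence. Of the coding transcripts that span it, 2 keep it and 1 removes it. The reference sequence of chr11:5424258-5424337 is printed 5′ to 3′ with the intron in capitals and 27 bases of exon on either side:
Xbp1 intron: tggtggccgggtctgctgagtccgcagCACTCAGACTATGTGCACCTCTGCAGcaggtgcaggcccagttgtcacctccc
The deposited values are per gene, so both forms count equally, and the share of active XBP1 mRNA was not measured.

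The promoters of Bhlha15 and Ell2 are shown because these genes had the largest rises of the 10 from embryo to adult. RefSeq (GRCm38.p6, a later build than that of the expression values) held promoter entries for 7 of the 10 genes, and windows from 250 bases before to 30 bases after the start were searched on both strands. The motifs were TGACGT (bound by CREB and ATF factors), ACGTG and CCACG (parts of XBP1 and ATF6 sites), CCAAT (the NF-Y box), CAGCTG and CATATG (E-boxes that basic helix-loop-helix factors bind), and the ER stress element by name, in which CCAAT and CCACG stand at a fixed distance. Matches are in capitals, overlapping ones merged:
Bhlha15 (chr5:144190036-144190315, plus strand): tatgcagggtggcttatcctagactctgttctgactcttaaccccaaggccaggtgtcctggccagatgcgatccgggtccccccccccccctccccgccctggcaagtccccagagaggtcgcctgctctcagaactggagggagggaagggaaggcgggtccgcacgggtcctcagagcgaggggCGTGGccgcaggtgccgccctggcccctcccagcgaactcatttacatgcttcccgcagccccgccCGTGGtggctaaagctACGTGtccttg
Ell2 (chr13:75707234-75707513, plus strand): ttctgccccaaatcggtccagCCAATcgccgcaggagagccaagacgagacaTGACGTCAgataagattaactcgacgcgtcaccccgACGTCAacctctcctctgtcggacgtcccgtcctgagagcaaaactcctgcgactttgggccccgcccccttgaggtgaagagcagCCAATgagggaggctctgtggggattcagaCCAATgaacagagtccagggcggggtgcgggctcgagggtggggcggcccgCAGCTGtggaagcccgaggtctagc
The Ell2 window held TGACGT at 3 places, first bases at -198, -196 and -162 from the start, of which the first pair overlap as the palindrome TGACGTCA. It also held CCAAT at 3 places and CAGCTG at 5 bases past the start. The Bhlha15 window held CCACG at -63 and 3 and ACGTG at 19. Among 32851 promoter windows of the same length, TGACGT was found in 7.26%, CCACG in 31.1%, ACGTG in 6079 windows, CCAAT in 36.1%, CAGCTG in 14.9% and CATATG in 3.76%. The ER stress element was in 0.116% of windows and in none of those of the 7 genes, and the Xbp1 window held no match to any of the 7 patterns.

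Depth was recovered exactly from the deposited values, which are whole reads divided by gene length and by total reads on genes, and lay between 5817293 and 48314162 reads on genes, with both 4wk libraries the shallowest. The make-up of the RNA changed strongly with age. The 10 most abundant genes of a library took between 5.9% and 14.4% of its FPKM in 6 of the 7 embryonic libraries, 29.2% and 31.1% in the P5 libraries, and between 48.1% and 61.1% in adult ones. FPKM are relative to all reads of a library, and the median change of all 14650 genes from embryo to adult was -0.752 on the log2 scale. Values were also divided by median-of-ratios factors, which set the typical gene equal between samples and brought this median to -0.047. Folds and tests are given for the FPKM as deposited and, where it matters, for these rescaled FPKM. In whole-gland RNA, more cells of a type and more RNA per cell cannot be told apart. Of the markers, the 5 pan-epithelial genes summed to between 329 and 1430 FPKM in embryonic, 1210 and 1440 in neonatal and between 629 and 742 in adult libraries, whereas the sums of the 6 mesenchymal genes were between 2020 and 3100, 1700 and 1900, and between 264 and 520. Library E14.5 replicate 1 stood apart from its replicates, with 329 FPKM of pan-epithelial genes against 544 and 557.

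**Figure D1:**
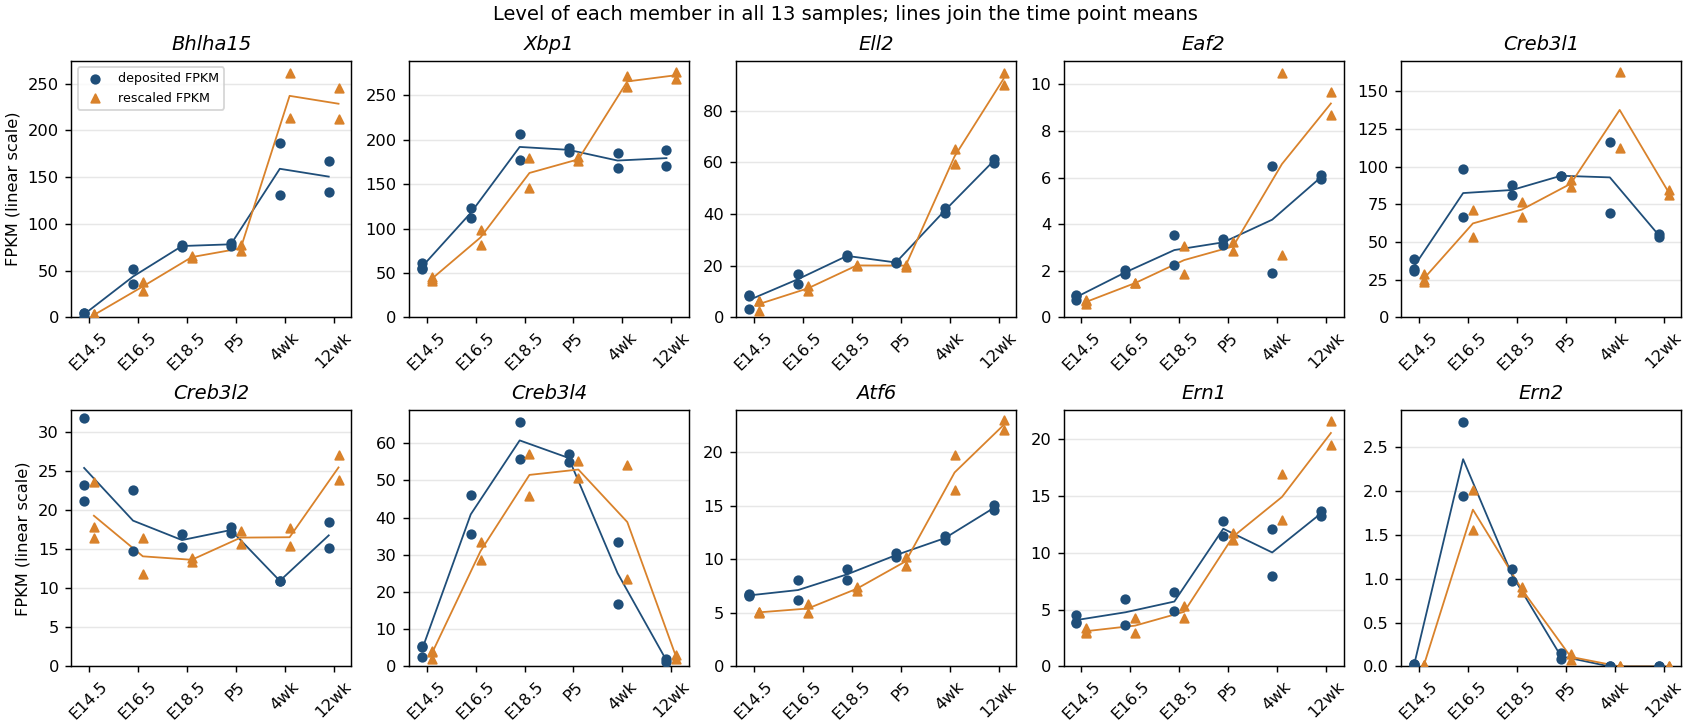
FPKM (vertical axis, linear, from 0) of each of the 10 genes at the 6 time points (horizontal axis), with 1 circle per sample for deposited FPKM, 1 triangle per sample for median-of-ratios rescaled FPKM, and lines through the time point means. Bhlha15, Xbp1, Ell2 and Atf6 are lowest at E14.5, Creb3l4 peaks at E18.5 and is nearly lost at 12wk, and Ern2 is seen mainly at E16.5 and E18.5.

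As deposited, calls of the 10 genes between neighbouring time points fell mainly from E14.5 to E16.5. The later steps called only Creb3l4, at P5 to 4wk and 4wk to 12wk, where 24.3% and 5.15% of all genes were called. From E14.5 to E16.5, 6 of the 10 genes rose and none fell (limma on log2(FPKM + 1), adjusted p below 0.1 and a log2 fold change of 1 or more either way), where 5.15% of all tested genes were called in either direction and 4.17% rose. The median log2 fold change of the 10 genes was 1.08, against 0.004 over all genes. The risers were Bhlha15, Xbp1, Ell2, Creb3l1, Creb3l4 and Ern2, and the same 6 were called with rescaled FPKM (background 4.40% called). Ern2 passed the 1 FPKM filter only through its E16.5 and E18.5 values, so its call at this step is not independent of that filter. With no filter on low values the same 6 were called. The 5 pan-epithelial markers moved with this step, from between 329 and 557 FPKM to between 1120 and 1430 in sum with 3 of 5 called higher, and the acinar list had 5 of 7 genes called higher. Their part in the rise of the 6 genes was not tested.

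Bhlha15 (ENSMUSG00000052271.7, chr5:144951155-144955310 in mm9, plus strand) had the widest relative range of the transcription factors. It measured 0.609, 4.97 and 4.39 FPKM at E14.5, 35.8 and 51.6 on E16.5, 77.7 and 74.9 on E18.5, 76.8 and 79.5 on P5, 187 and 131 for 4wk, and 167 and 134 for 12wk. The time points formed 4 steps without overlap, E14.5, E16.5, then E18.5 with P5, then both adult ages, and the neighbours within the last 2 steps overlapped. From E14.5 to E16.5 the log2 fold change was 3.56 ± 0.44 (SE, limma adjusted p = 0.00041). Between embryo and adult it rose by 3.10 ± 0.93 (adjusted p = 0.0079), or 3.98 ± 0.93 with rescaled FPKM (adjusted p = 0.0021). The step from P5 to 4wk was 0.99 ± 0.48 (adjusted p = 0.099) as deposited, just short of the fold required, and 1.66 ± 0.44 (adjusted p = 0.012) rescaled, where it was called. E14.5 replicate 1, with 41 reads on the gene, lay far below its replicates. Without it the log2 fold change from E14.5 to E16.5 was 2.96 (adjusted p = 1.5e-05), still past both thresholds.

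Xbp1, the factor that drives the ER expansion of secretory cells, was among the highest of the 10 genes at every time point. It measured 60.8, 55.7 and 54.0 FPKM at E14.5, 123 and 112 on E16.5, 177 and 207 on E18.5, 191 and 186 on P5, 186 and 168 for 4wk, and 189 and 170 for 12wk. As deposited, the steps between neighbouring time points from E18.5 onward lay between -0.10 and 0.02 on the log2 scale, so these ages could not be ordered beyond their spread. It rose from E14.5 to E16.5 by 1.04 ± 0.12 (SE, log2, limma adjusted p = 0.00025), and the following step to E18.5 measured 0.70 ± 0.13 (adjusted p = 0.0087), below the fold required. Without E16.5 replicate 1 the first of these rises was not called. The adult plateau depended on the scale. The change from embryo to adult was 0.84 ± 0.34 (adjusted p = 0.039) as deposited and not called, and 1.78 ± 0.37 (adjusted p = 0.00098) rescaled and called, and from P5 to 4wk the log2 fold change was -0.10 ± 0.13 as deposited and 0.57 ± 0.14 rescaled, neither called.

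Ell2 (ENSMUSG00000001542.6, chr13:75844932-75909804, plus strand), the elongation factor, rose again after birth. It measured 3.26, 8.44 and 8.51 FPKM at E14.5, 12.9 and 16.7 on E16.5, 24.1 and 23.5 on E18.5, 21.4 and 21.1 on P5, 42.5 and 40.3 for 4wk, and 61.4 and 59.9 for 12wk. As deposited no time points overlapped, with P5 slightly below E18.5. Ell2 was called from embryo to adult (1.99 ± 0.40 SE, log2, limma adjusted p = 0.00042, and 2.89 ± 0.41 rescaled) and from P5 to both adult ages together (1.20 ± 0.55, adjusted p = 0.087, and 1.87 ± 0.57 rescaled, adjusted p = 0.028). The early rise from E14.5 to E16.5 (1.11 ± 0.28, adjusted p = 0.021) was not called without E14.5 replicate 1, the lowest sample, or without E16.5 replicate 2. Ell2 was the only one of the 10 genes higher in every adult than in every P5 sample and called there, on either scale, with 2.31% of all genes called higher as deposited and 6.07% rescaled.

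Eaf2 (chr16:36792970-36875089, minus strand), which binds and stimulates ELL proteins, was low throughout. It measured 0.765, 0.945 and 0.914 FPKM at E14.5, 1.86 and 2.01 on E16.5, 2.26 and 3.52 on E18.5, 3.09 and 3.36 on P5, 1.90 and 6.49 for 4wk, and 5.93 and 6.11 for 12wk. The adult samples were higher than the embryonic ones except for 4wk replicate 1, which lay among the E16.5 values. From the embryonic to the adult stage it rose by 1.13 ± 0.30 (SE, log2, limma adjusted p = 0.0035), and 1.83 ± 0.32 (adjusted p = 0.00026) rescaled. On the log2(FPKM + 1) scale, folds of a gene at this level are understated.

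Among the ER-membrane factors, Creb3l1 (chr2:91822485-91864659, minus strand), known for its action on collagen and secretory pathway genes, was the most abundant. It measured 38.8, 32.0 and 31.0 FPKM at E14.5, 66.4 and 98.4 on E16.5, 81.5 and 87.5 on E18.5, 93.9 and 93.9 on P5, 116 and 69.2 for 4wk, and 55.5 and 53.5 for 12wk. It rose from E14.5 to E16.5 by 1.24 ± 0.21 (SE, log2, limma adjusted p = 0.0031), and both 12wk samples lay below every sample from E16.5 to 4wk as deposited. The rise was not called without E16.5 replicate 2. The step from 4wk to 12wk, -0.71 ± 0.23 (adjusted p = 0.071), was below the fold required. From embryo to adult the change was 0.31 ± 0.34 (adjusted p = 0.42) as deposited and 1.24 ± 0.35 (adjusted p = 0.007) rescaled.

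Creb3l4 (chr3:90041422-90047434, minus strand), a CREB3-like factor of prostate and other epithelia, had a peak around birth. It measured 2.61, 5.41 and 5.16 FPKM at E14.5, 35.6 and 46.1 on E16.5, 55.8 and 65.6 on E18.5, 55.0 and 57.0 on P5, 16.8 and 33.3 for 4wk, and 1.30 and 1.95 for 12wk. It rose from E14.5 to E16.5 by 2.99 ± 0.29 (SE, log2, limma adjusted p = 9.1e-05). It was the only one of the 10 genes called between 4wk and 12wk, where it fell by 3.25 ± 0.32 on the log2 scale (adjusted p = 0.00011, and -3.42 ± 0.36 rescaled), against 5.15% of all genes called in either direction and 2.48% lower, or 6.95% called rescaled. The fall from P5 to 4wk, -1.20 ± 0.32 (adjusted p = 0.0079), was called as deposited, where 22.1% of all genes were called lower, and not rescaled (-0.55 ± 0.36, adjusted p = 0.24). It was not called without 4wk replicate 1. The fall from P5 to both adult ages together, -2.83 ± 1.29 (adjusted p = 0.087, where 20.8% of all genes were called lower), joined a moderate 4wk level to a nearly absent 12wk level, and was -2.26 ± 1.34 (adjusted p = 0.23) rescaled.

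Creb3l2 (chr6:37277255-37392146, minus strand), a factor of secretory cargo transport in cartilage and other tissues, was the only one of the 10 highest at E14.5 as deposited. It measured 31.7, 21.2 and 23.3 FPKM at E14.5, 14.7 and 22.6 on E16.5, 17.0 and 15.3 on E18.5, 17.1 and 17.8 on P5, 10.98 and 10.91 for 4wk, and 18.4 and 15.1 for 12wk. It was called in none of the 8 comparisons on either scale or by limma voom, although 4 of them had an unadjusted p below 0.05 in limma as deposited, with log2 fold changes between -0.63 and 0.57. The sign of its difference from embryo to adult depended on the scale, -0.54 ± 0.20 (SE, log2, limma adjusted p = 0.025) as deposited and 0.35 ± 0.18 (adjusted p = 0.11) rescaled.

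The 3 stress sensors differed in timing. Atf6 (chr1:172634588-172797902, minus strand) measured 6.74, 6.53 and 6.63 FPKM at E14.5, 6.19 and 8.07 on E16.5, 9.09 and 8.10 on E18.5, 10.2 and 10.6 on P5, 11.8 and 12.2 for 4wk, and 15.03 and 14.57 for 12wk. From E16.5 onward each time point lay above the one before it. The difference from embryo to adult, 0.79 ± 0.13 (SE, log2, limma adjusted p = 6e-05), passed the adjusted p but was below the fold required as deposited, and 1.66 ± 0.14 (adjusted p = 3.4e-07) and called rescaled.

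Ern1 (chr11:106255964-106349166, minus strand), the IRE1 enzyme found in most tissues, was higher after birth than before. It measured 4.54, 3.81 and 3.91 FPKM at E14.5, 3.64 and 5.91 on E16.5, 6.54 and 4.89 on E18.5, 12.8 and 11.5 on P5, 12.1 and 7.96 for 4wk, and 13.3 and 13.7 for 12wk. All postnatal samples were higher than all embryonic ones. From embryo to neonatal it was the only one of the 10 genes called as deposited, by 1.21 ± 0.22 (SE, log2, limma adjusted p = 0.003), against 12.3% of all genes called and 4.14% called higher. Rescaled, Xbp1 was also called there (1.18 ± 0.47, adjusted p = 0.096), and on the recovered reads limma voom also called Ern2, lower (-3.62 ± 1.49, adjusted p = 0.067). Between E18.5 and P5 alone it measured 0.98 ± 0.22 (adjusted p = 0.014) as deposited and 1.1 ± 0.18 (adjusted p = 0.0038) rescaled, where it was called. Between embryo and adult it rose by 1.15 ± 0.17 (adjusted p = 4.1e-05) as deposited and by 1.98 ± 0.17 (adjusted p = 4.6e-07) rescaled.

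Ern2 (chr7:129313407-129329730, minus strand), the IRE1 paralog of mucus-secreting epithelia, was transient. It measured 0.017, 0.027 and 0.025 FPKM at E14.5 (1, 2 and 2 reads), 1.94 and 2.78 on E16.5 (209 and 308 reads), 1.11 and 0.975 on E18.5 (57 and 94 reads), 0.153 and 0.080 on P5 (22 and 10 reads), and had 0 reads in all 4 adult samples. The time points from E14.5 to P5 did not overlap. With 0 reads among the 64027588 reads on genes of the adult libraries, a limit of 3 reads allows up to 0.0158 FPKM over the group, so that the E16.5 level was at least 150-fold higher and the P5 level at least 7.39-fold higher. These limits cover counting error only. On the log2(FPKM + 1) scale it rose by 1.70 ± 0.14 (SE, limma adjusted p = 3.4e-05) from E14.5 to E16.5, a size that the added 1 keeps small at this level, while limma voom on the recovered reads gave 6.27 ± 0.51 (adjusted p = 2.4e-05). The later declines, -0.71 ± 0.15 to E18.5 (adjusted p = 0.018) and -0.87 ± 0.15 to P5 (adjusted p = 0.0042), fell short of the fold on this scale, while on the recovered reads limma voom called both (-1.18 ± 0.29, adjusted p = 0.021, and -3.15 ± 0.47, adjusted p = 0.00094). The difference from embryo to adult, -0.80 ± 0.34 (adjusted p = 0.044), was likewise short of the fold, and voom called it (-6.78 ± 1.90, adjusted p = 0.0051); with 0 reads in the adult, this fitted fold is no bound.

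**Figure D2:**
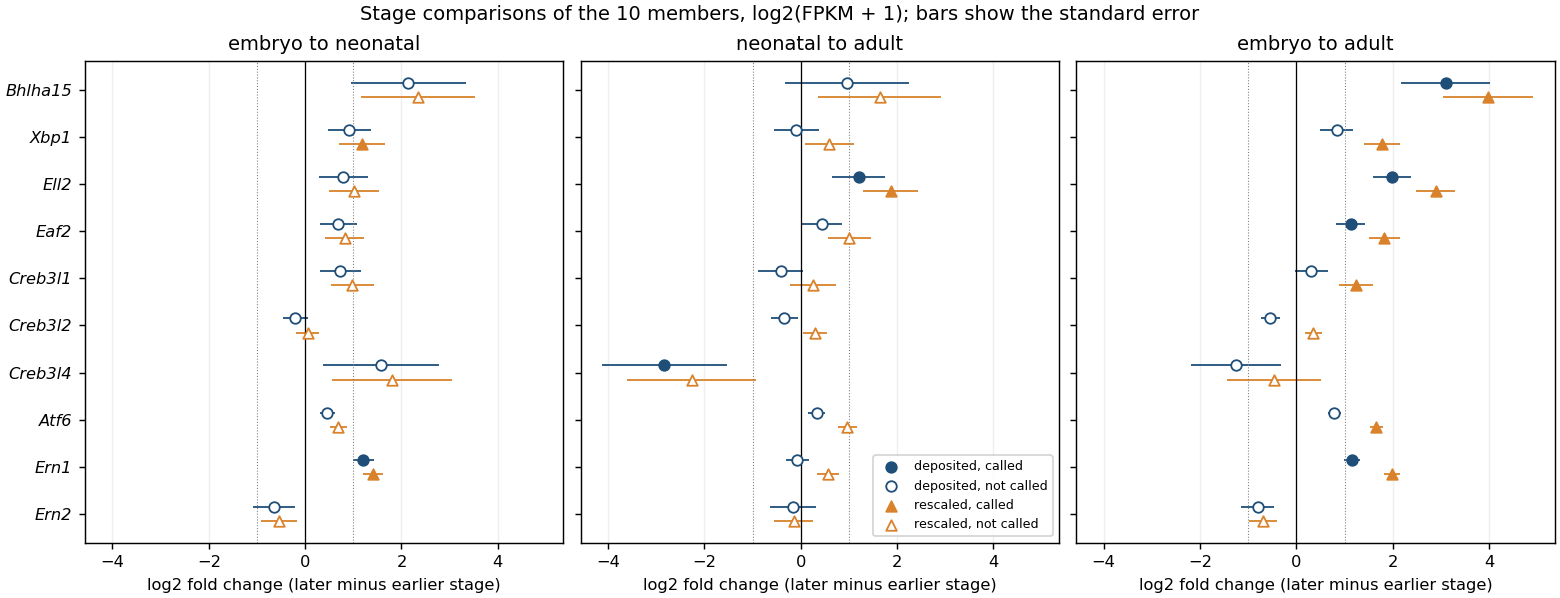
Log2 fold change on log2(FPKM + 1) between stages (horizontal axis, later minus earlier) for each of the 10 genes, with the standard error as a bar, circles for deposited and triangles for rescaled FPKM, filled where a gene was called and open where not. From embryo to adult 4 genes are filled as deposited and 7 rescaled, and the sign of Creb3l2 differs between the scales.

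Across stages, the count of genes called depended on the scale. The fit over stages treats the time points of a stage as replicates. Its standard errors and p-values therefore hold change between those time points as well as replicate scatter. From embryo to adult, Bhlha15, Ell2, Eaf2 and Ern1 were called, all higher, where 43.6% of all tested genes were called but only 5.58% were higher. The median log2 fold change of the 10 genes was 0.81, against -0.752 over all genes. Ern2 was added as lower with a pseudocount of 0.1 or with voom. Rescaled, 7 were called, all higher, with Xbp1, Creb3l1 and Atf6 added, where 28.5% of all genes were called and 13.8% were higher. Relative to the median of all genes, Bhlha15 changed by 3.85 and Ell2 by 2.74 as deposited, Xbp1 by 1.59, Atf6 by 1.54 and Creb3l1 by 1.06, so these 3 fell below the fold required only before the shift of the typical gene was taken away. From embryo to neonatal 1 of the 10 was called as deposited and 2 (Ern1 and Xbp1) rescaled, where 9.48% of all genes were called. From neonatal to adult 2 of the 10 were called (Ell2 higher and Creb3l4 lower, background 23.1%), and only Ell2 rescaled (background 14.6%). As deposited, both calls were lost without any 1 of the P5 or 12wk samples.

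Between neighbouring time points after E16.5, few of the 10 genes were called. From E16.5 to E18.5 none was called by limma, where 2.94% of all genes were and 2.49% rescaled, although Xbp1 and Ern2 had an unadjusted p below 0.05 and voom on the recovered reads called Ern2 (background 6.38%). From E18.5 to P5 none was called (background 5.04%), although Ern1 and Ern2 had an unadjusted p below 0.05, voom called both (background 10.3%), and Ern1 was called rescaled (background 4.17%). From P5 to 4wk only Creb3l4 was called, lower, where 24.3% of all genes were called. Rescaled, that step instead called Bhlha15 (1.66) and Ell2 (1.59), both higher, where 15.2% of all genes were called and 6.40% were higher.

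**Figure D3:**
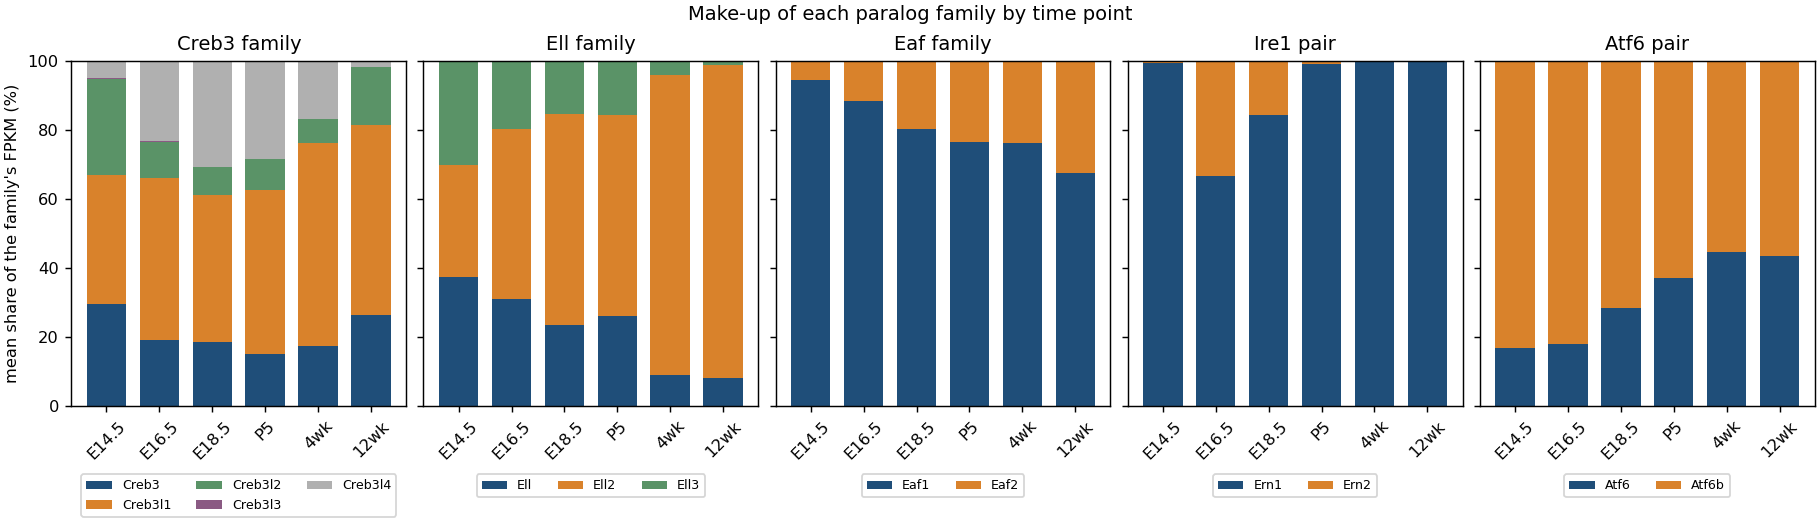
Mean share (%, vertical axis, from 0 to 100) of each paralog in the summed FPKM of its family at each of the 6 time points, as stacked bars. Ell2 takes a mean of 32.3% of the Ell family at E14.5 and 90.7% at 12wk, and Ern2 is a visible part of the Ire1 pair only at E16.5 and E18.5.

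Shares within paralog families do not depend on the scaling of a library, because every paralog of a sample is divided by the same factor. Among the ELL elongation factors, Ell2 took 32.3% ± 11.5 of the family's FPKM at E14.5 (SD, n = 3), 49.5% ± 1.33 on E16.5, 61.1% ± 0.685 on E18.5, 58.3% ± 2.36 on P5, 87.1% ± 3.50 at 4wk and 90.7% ± 0.180 at 12wk (SD, n = 2 each). Ell and Ell3 made up the rest, and the gland thus passed from a mix of all 3 to nearly Ell2 alone. Eaf2 went from 5.45% ± 0.202 of the Eaf1 and Eaf2 sum at E14.5 to 32.4% ± 0.0995 at 12wk, with both 4wk replicates apart at 10.5% and 37.0%, so that Eaf1 remained the larger partner at every time point.

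Among the sensors, Atf6 took 16.7% ± 0.305 of the Atf6 and Atf6b sum at E14.5 and 44.7% ± 0.146 at 4wk, as Atf6 values went up and those of Atf6b, its weaker paralog, went from between 32.4 and 33.7 FPKM at E14.5 to lower adult values. Ern2 took 33.4% ± 1.98 of the IRE1 pair on E16.5, 15.5% ± 1.52 on E18.5 and 0.937% ± 0.348 on P5. In the CREB3 family, Creb3l1 was the largest part at every time point, with between 37.4% at E14.5 and 58.9% at 4wk. Creb3l4 went from 4.97% ± 2.06 at E14.5 to 30.6% ± 1.26 on E18.5 and 1.65% ± 0.560 at 12wk, and Creb3l2 from 27.8% ± 3.52 at E14.5 to 7.09% ± 0.768 at 4wk and 16.8% ± 1.38 at 12wk.

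**Figure D4:**
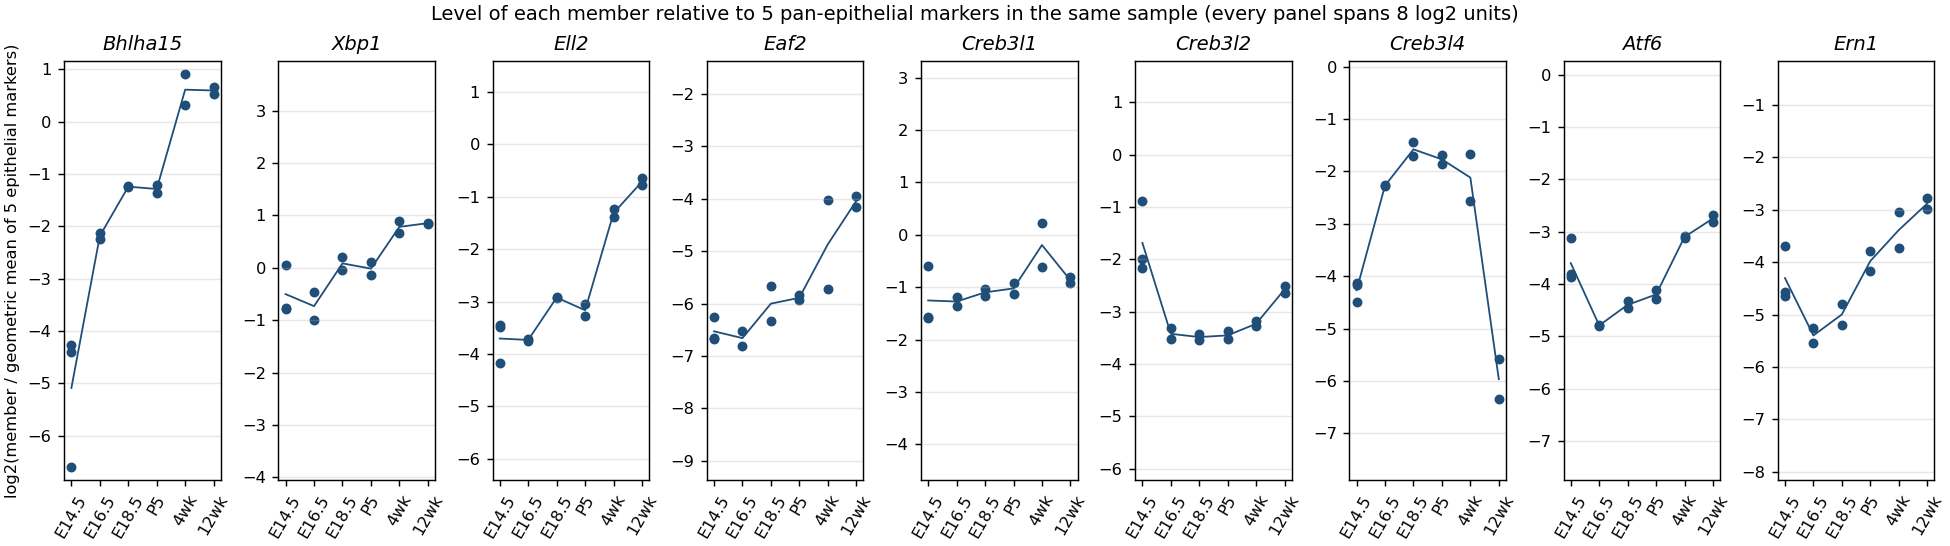
Log2 ratio (vertical axis) of 9 of the genes to the geometric mean of Epcam, Cdh1, Krt8, Krt18 and Cldn4 in the same sample, at each time point, with 1 point per sample and lines through the means; every panel spans 8 log2 units, and Ern2, at 0 in the adult, is left out. Bhlha15 climbs from a mean of -5.09 at E14.5, where replicate 1 lies apart at -6.59, to 0.608 at 4wk, while Creb3l1 stays between -1.27 and -0.194.

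The 10 genes were also set against pan-epithelial genes of the same sample. The mean log2 ratio of Bhlha15 to the 5 epithelial markers went from -5.09 at E14.5 to -2.18 on E16.5, -1.24 on E18.5, -1.29 on P5, 0.608 at 4wk and 0.592 at 12wk. It stepped up without overlap of samples from E14.5 to E16.5, from E16.5 to E18.5 and from P5 to 4wk. The E14.5 samples of Bhlha15 measured -6.59, -4.26 and -4.41, with a mean of -4.33 without replicate 1, and still lay below both E16.5 samples (-2.25 and -2.12). For Xbp1 the mean ratio was -0.503 at E14.5 and -0.733 at E16.5, with overlapping samples, and for Ell2 -3.71 and -3.73, also overlapping. With Epcam and Cdh1 alone as the reference, these means were -0.808 and -0.552 for Xbp1, again overlapping, and -4.01 and -3.55 for Ell2, whose samples did not overlap. Between embryo and adult the mean log2 ratio differed by 3.76 for Bhlha15, 2.48 for Ell2, 1.96 for Eaf2, 1.68 for Ern1, 1.24 for Atf6, 1.22 for Xbp1, 0.68 for Creb3l1, -0.21 for Creb3l2 and -1.11 for Creb3l4. With Epcam and Cdh1 alone as the reference, the difference was 3.99 for Bhlha15, 2.71 for Ell2, 1.45 for Xbp1 and 0.02 for Creb3l2. No test was made on these ratios.

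Plasma cells also depend on Xbp1 and Ell2, so their markers were read beside these genes. The 9 plasma and B cell genes summed to between 47.0 and 107 FPKM in the embryo, of which Sdc1, which epithelia also express, gave most. The sum was 49.0 and 53.9 in neonatal libraries, 10.8 and 18.9 in those of 4wk, and 78.1 and 85.6 in those of 12wk. Igj, the joining chain of secreted antibodies, measured at most 0.247 FPKM up to P5, then 4.01 and 2.81 in the 4wk libraries and 64.4 and 73.4 in the 12wk ones. Sdc1 measured 27.5 and 30.2 FPKM on P5 and 7.20 and 7.73 for 4wk, so that the sum was lower through Sdc1, while Igj was higher than its P5 values of 0.197 and 0.192, as were Bhlha15 and Ell2 than theirs. From 4wk to 12wk the Igj level and the Ell2 level were both higher again. The part of plasma cells in either step was not tested.

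**Figure D5:**
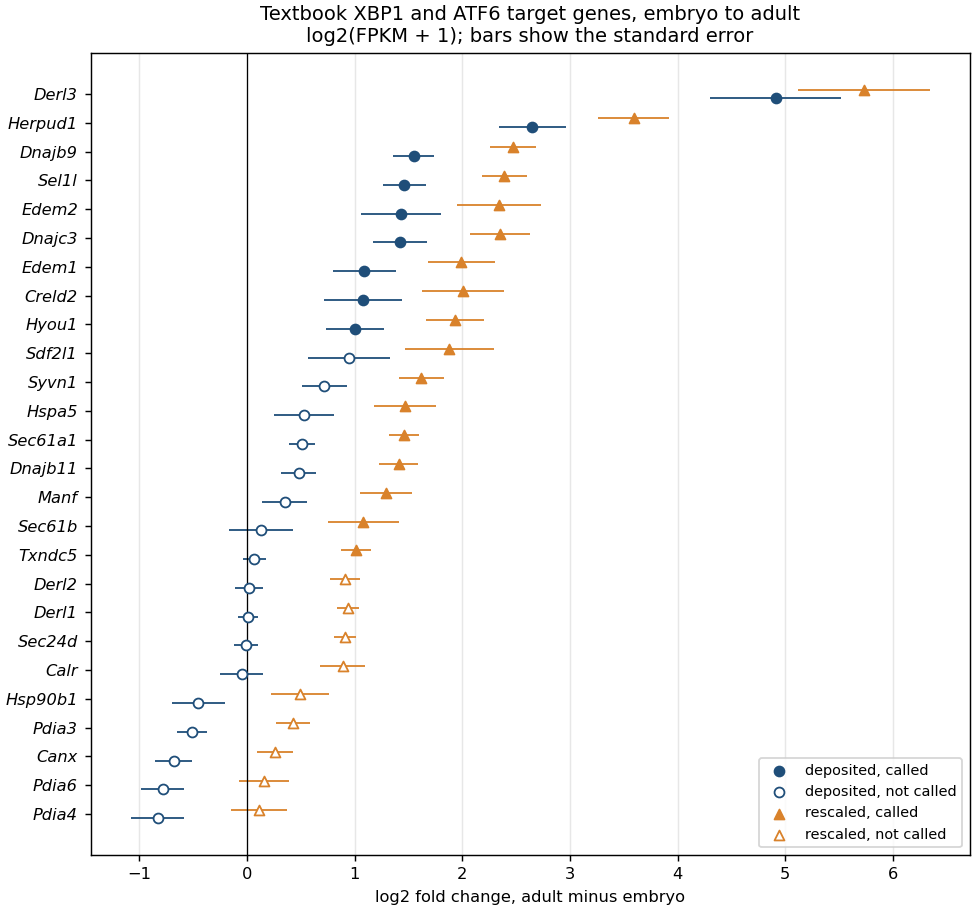
Log2 fold change from embryo to adult (horizontal axis, log2(FPKM + 1)) of 26 textbook XBP1 and ATF6 target genes, with the standard error as a bar, circles for deposited and triangles for rescaled FPKM, filled where called. As deposited 9 of the 26 are called, all higher, and rescaled 17; Derl3 and Herpud1 lead on both scales.

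The textbook targets of XBP1 and ATF6, genes for ER chaperones, translocation and degradation, were compared next. Of 26 targets, 9 rose and none fell between embryo and adult as deposited, and 17 rose rescaled, against backgrounds of 5.58% and 13.8% higher. Their median log2 fold change was 0.50 as deposited, with -0.752 over all genes, and 1.43 rescaled, with -0.047. The largest rises as deposited were those of Derl3, Herpud1 and Dnajb9. Derl3, part of the channel that returns misfolded protein to the cytosol, went from between 0.699 and 18.2 FPKM in the embryo to 55.9 and 50.6 on P5 and finally between 110 and 203 in adult glands (4.91 ± 0.61 SE, log2, limma adjusted p = 6.5e-06). Herpud1, a scaffold of the same pathway, rose by 2.65 ± 0.31 (adjusted p = 3.5e-06), and Dnajb9, a co-chaperone of the ER chaperone BiP, by 1.55 ± 0.19 (adjusted p = 6.6e-06). The protein disulfide isomerases Pdia3, Pdia4 and Pdia6 were not called between embryo and adult on either scale, with log2 fold changes of -0.51, -0.83 and -0.78 as deposited and 0.43, 0.11 and 0.16 rescaled.

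Part of the rise fell within adult life. From neonatal to adult 4 of the 26 targets rose as deposited and 15 rescaled, where 2.31% and 6.07% of all genes were called higher. From 4wk to 12wk 7 rose and none fell on both scales, where 2.68% of all genes were called higher as deposited and 3.69% rescaled. Creld2, an ER stress-induced secreted protein, measured 36.2 and 34.2 FPKM on P5, 56.1 and 41.6 for 4wk, and 174 and 185 for 12wk. Its change from neonatal to adult was 1.38 ± 0.50 (SE, log2, limma adjusted p = 0.037). Hyou1, an ER chaperone, measured 35.3 and 33.0, 49.3 and 51.4, and 128 and 138 at these ages. Its change from neonatal to adult was 1.24 ± 0.37 (adjusted p = 0.017). The neonatal to adult call of Creld2 was lost without either P5 sample and that of Hyou1 without 12wk replicate 2. Both 12wk values of each gene exceeded both 4wk values, at ages between which Xbp1 itself measured a log2 fold change of 0.02 ± 0.13. From E14.5 to E16.5, where 6 of the 10 regulators rose, 2 of the 26 targets rose (Edem2 by 1.08 and Derl3 by 1.19), and the list's median was 0.10.

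The remaining lists are to be read against all genes from embryo to adult, of which 5.58% were called higher and 38.0% lower as deposited, and 13.8% higher and 14.7% lower rescaled. In the arm of the third ER stress sensor, PERK, 3 of 10 genes rose and 1 fell as deposited, and 7 rose rescaled. Nupr1, a small stress-response chromatin protein, went from between 11.6 and 129 FPKM in the embryo to 360 and 455 on P5 and finally between 434 and 1094 in adult glands (4.03 ± 0.58 SE, log2, limma adjusted p = 2.6e-05). Asns, asparagine synthetase, rose by 2.91 ± 0.26 (adjusted p = 3.6e-07), while Atf5, a factor of the same arm, fell by 1.41 ± 0.19 (adjusted p = 1.2e-05) as deposited and measured -0.52 rescaled. Chac1, which degrades glutathione, rose by 1.90 ± 0.40 (adjusted p = 0.00067). Its call is not independent of the 1 FPKM filter, which it passed only through postnatal samples. In the embryo Chac1 measured between 0.198 and 0.808 FPKM. It measured 8.88 and 9.17 FPKM on P5, 3.18 and 19.5 for 4wk, and 1.78 and 2.89 for 12wk, so that 4wk replicate 2 lay far above the other adult samples, and without it the rise was 1.27 ± 0.17 (adjusted p = 3.4e-05). Of the 8 genes for sensors, proteases and the splicing ligase, 7 were tested and 2 fell as deposited, where 38.0% of all genes fell, namely Mbtps1 (-1.60 ± 0.08, adjusted p = 3e-09), the Golgi protease that frees ATF6 and CREB3-like factors, and D10Wsu52e (-1.10 ± 0.14, adjusted p = 6.8e-06), the RtcB ligase that rejoins Xbp1 mRNA. Neither was called rescaled (-0.68 and -0.17), where Eif2ak3, the PERK gene, was the 1 gene called, with 1.84, where 13.8% of all genes rose.

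Known MIST1 targets moved both ways. From E14.5 to E16.5, the step at which Bhlha15 rose, 3 of 6 rose, namely Rab3d (2.72), Gjb1 (1.88) and Atp2c2 (1.66). At this step 4.17% of all genes were called higher, as were 3 of the 5 pan-epithelial and 5 of the 7 acinar genes. Between embryo and adult 2 rose and 2 fell as deposited (all genes 5.58% and 38.0%), and 4 rose and the same 2 fell rescaled (all genes 13.8% and 14.7%). Gjb1, the connexin 32 gene of acinar gap junctions, went from between 0.277 and 16.6 FPKM in the embryo to between 40.2 and 53.2 in the adult (3.56 ± 0.68 SE, log2, limma adjusted p = 0.0003), and Rab26, a granule GTPase, rose by 1.46 ± 0.28 (adjusted p = 0.00028). Serpini1 fell by 1.78 ± 0.21 (adjusted p = 3.2e-06). Atp2c2, a calcium pump of the secretory pathway, peaked between 3.34 and 5.69 FPKM at E16.5 and E18.5 and fell to at most 0.624 in the adult (-1.47 ± 0.40, adjusted p = 0.0039). Atp2c2 passed the 1 FPKM filter only through E16.5, E18.5 and P5 samples, so its calls are not independent of that filter.

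The elongation list held 13 genes, the Ell2 paralogs Ell and Ell3 among them. As deposited, their median log2 fold change from embryo to adult, -0.79, was close to the median of all genes. Of the 13, 1 rose and 5 fell as deposited, and 1 rose and 1 fell rescaled. These counts are near the shares of all genes, 5.58% higher and 38.0% lower as deposited and 13.8% and 14.7% rescaled. The one that rose on both scales was Aff1, a scaffold of the super elongation complex (1.03 ± 0.25 SE, limma adjusted p = 0.0019, not called as deposited without any 1 of the E14.5 samples or without 12wk replicate 1), and the one that fell on both was Ell3 (-1.64 ± 0.18, adjusted p = 2.3e-06). Mllt1 (-1.74 ± 0.21, adjusted p = 6.1e-06) and Mllt3 (-1.55 ± 0.12, adjusted p = 8.5e-08), readers of acylated histones in that complex, were called as deposited, with -0.87 and -0.74 rescaled.

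Of 13 other factors of secretory cells, 10 were tested, and 1 rose and 3 fell from embryo to adult as deposited, and 3 rose and 2 fell rescaled. As deposited the share that fell was near the 38.0% of all genes, and rescaled 13.8% of all genes rose and 14.7% fell. Etv1, an ETS factor, rose by 1.34 ± 0.51 (SE, log2, limma adjusted p = 0.028). Gata6 (-2.86 ± 0.24, adjusted p = 1.8e-07) and Nr5a2 (-1.48 ± 0.34, adjusted p = 0.0014) fell on both scales, while Sox9, a progenitor factor, fell only as deposited (-1.15 ± 0.24, adjusted p = 0.00063, and -0.27 rescaled).

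Genes whose log2(FPKM + 1) profile over the 13 samples was most like that of each regulator were ranked by Pearson's r, given as a description, since the samples share 6 time points and many genes follow the same ages. Closest to Bhlha15 were Acss1 (r = 0.993), Atp2a3 (0.989) and Kcnn4 (0.986), an acetyl-CoA synthetase, a calcium pump of the ER and a calcium-gated potassium channel. Closest to Xbp1 were Trabd (0.979), Oit1 (0.978) and Sec11c (0.978), the last a subunit of the signal peptidase, and closest to Ell2 were Cadps2 (0.985), Rasef (0.985) and Galnt3 (0.982). Eaf2 was most like Tmem139 (0.975), 1700028J19Rik (0.952) and Galm (0.947).

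Of the membrane factors and sensors, Creb3l1 was most like Gm7694 (0.951), Arhgap44 (0.951) and Sytl4 (0.939), Creb3l2 like Tanc2 (0.967), Dst (0.956) and Aak1 (0.955), and Creb3l4 like 4833423E24Rik (0.978), Tcea3 (0.968) and Tmc5 (0.959). Atf6 was most like Ccpg1 (0.983), an ER-phagy receptor, Kcnq1 (0.982) and Kcnj15 (0.977), Ern1 like Tep1 (0.982) and Pde4a (0.971), and Ern2 like Ano7 (0.962), Nptx2 (0.959) and Tpsg1 (0.936). Among the 10 genes themselves, r was 0.94 between Bhlha15 and Ell2, 0.93 between Bhlha15 and Xbp1, 0.93 between Atf6 and Ern1, 0.87 between Ell2 and Eaf2, and -0.42 between Ern1 and Ern2, over the same 13 samples.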

How the data were processed

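Submandibular gland RNA of 13 samples was sequenced as 50 bp single-end reads. The authors aligned them to mm9 (TopHat2 2.0.13, Bowtie2 2.2.6), counted reads that map to 1 place and 1 gene with featureCounts, derived FPKM with DESeq2 (1.10.1 in the processing notes), and deposited FPKM per gene, which undercounts genes with near-identical copies. Whole reads were recovered from them for all 20268 genes above 0 in a sample (100% within 1e-05 reads), which showed division by the total of each library and no further scaling. The 10 genes and all gene lists were chosen with earlier results of these data known. Genes reaching 1 FPKM anywhere (14650) were fitted as log2(FPKM + 1) with limma 3.58.1 (R 4.3.3, variance trend), once over the 3 stages and once over the 6 time points, always with all 13 samples. In the fit over stages, change between the time points of a stage counts as residual spread. P-values were Benjamini-Hochberg adjusted over these genes, and calls required an adjusted p below 0.1 and a log2 fold change of 1 or more in size. Rescaling used median-of-ratios factors of 13039 genes above 0 in every sample and tested 14601 genes. Limma voom on recovered reads was added after seeing the data. Alternatives were another pseudocount, filter, threshold or trend, a replicate block, only the groups compared, and each sample left out. Of each list, up to 3 called genes per direction with the largest change were named, and for each regulator the 3 most alike genes, of which 1 is not reported here. Other genes were named after their values were seen. Replicate libraries differed beyond sampling noise in all 8 pairs. No sequencing batch is given in the labels. Simulated data were used to test the fits. Tables and figures were made in Python 3.11.15 (pandas 2.3.3, numpy 2.4.6, matplotlib 3.10.9).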

Additional observations from a re-analysis of the deposited data

Results flagged for a closer look

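Of the samples of a stage, 1 lay far from the others for 1 of the 10 genes. Eaf2 measured 1.90 FPKM in 4wk replicate 1, while the other 3 adult samples lay between 5.93 and 6.49 FPKM, a gap of 0.919 of the whole range on the log2(FPKM + 1) scale. This library was the shallowest, with 5817293 reads on genes, and the part of depth was not tested. Chance alone marks about 1 in 20 such groups, and 19 were examined.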

How the results depend on the processing

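Of 506 values (22 pairs of gene and comparison called as deposited or rescaled, under 23 alternatives), 458 kept their side of the thresholds, 22 gained a call, 26 lost one, and none changed sign. Median-of-ratios rescaling gave 7 of 10 genes called from embryo to adult, 2 from embryo to neonatal, 1 from neonatal to adult, 1 from E18.5 to P5 and 2 from P5 to 4wk. A pseudocount of 0.1 gave 5 from embryo to adult, with Ern2 added as lower, 1 from neonatal to adult, 2 from E18.5 to P5 and 2 from P5 to 4wk. From neonatal to adult, no filter on low values and an adjusted p below 0.05 each gave 0. Voom with total scaling, chosen after seeing the data, gave 5 from embryo to adult, again with Ern2 lower, 2 from embryo to neonatal, 1 from neonatal to adult, 1 from E16.5 to E18.5, 2 from E18.5 to P5 and 3 from P5 to 4wk, and with median-of-ratios scaling 3, 3, 1, 2 and 2, and 8 from embryo to adult. Counting error is largest in the 4wk libraries, with 5817293 and 7957918 reads on genes.

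Leaving out 1 sample gave between 4 and 6 calls from E14.5 to E16.5, 4 and 5 from embryo to adult, 1 and 2 from embryo to neonatal, 0 and 2 from neonatal to adult, 0 and 1 from E18.5 to P5, 0 and 1 from P5 to 4wk, 1 and 3 from 4wk to 12wk, and 0 from E16.5 to E18.5. From E14.5 to E16.5, Ell2 and Creb3l1 were lost without E16.5 replicate 2, Ell2 without E14.5 replicate 1, and Xbp1 without E16.5 replicate 1. From neonatal to adult, both calls were lost without either P5 or either 12wk sample, and Ell2 without E16.5 replicate 1. From 4wk to 12wk, Creb3l1 and Eaf2 were added without 4wk replicate 2. From P5 to 4wk, Creb3l4 was lost without 4wk replicate 1. From E18.5 to P5, Ern1 was added without E18.5 replicate 1 or P5 replicate 2, and from embryo to neonatal, Xbp1 without either E18.5 sample.

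The replicate number as a block changed 1 count, from neonatal to adult, to 1, with Ell2 lost. Whether the numbers pair the samples could not be decided. Deviations from the time point means correlated with a mean r of -0.016 for 30 pairs of equal number (between -0.352 and 0.273). The mean r was 0.012 for 40 pairs of unequal number. Where a time point has 2 samples, their deviations mirror each other, so the unequal pairs are no separate comparison.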
